A study of Mus musculus with 10 samples.

Results

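Smoc2 and 9 further genes for matricellular proteins, proteins that are secreted into the extracellular matrix and act on cells and on matrix assembly more than as structural fibres, were followed in interscapular brown adipose tissue (iBAT) of mice. The 10 genes are Smoc2, Smoc1, Sparc, Sparcl1 and Fstl1 of the SPARC family, the thrombospondins Thbs1 and Thbs2, the tenascin Tnxb, periostin (Postn) and Ccn2, out of 41249 gene identifiers in the tables. Related genes make up the list, and Smoc2 was chosen by its measured CPM in Axl KO against WT mice, after its fall was seen, so its difference between the genotypes is described here without a test. The other members and the related lists were also chosen with earlier results of these data known. Their counts beside shares of all genes are therefore descriptions. RNA of whole depots was sequenced from 5 Axl KO and 5 wild-type (WT) mice, 1 library per mouse. By the sample records, all 10 mice ate HFD, a high-fat diet, for 24 weeks from an age of 6 to 8 weeks, and the KO is constitutive and whole-body, so that Axl is disrupted in adipocytes, vessel cells, fibroblasts and immune cells alike. By the study's text the mice were male, and the KO allele is of the knockout-first kind, with a cassette inserted within Axl; the study's text gives a different age and length of diet.

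AXL is a receptor tyrosine kinase of the TAM family. Proteins of the SPARC family share an extracellular calcium-binding domain; SPARC binds collagen and takes part in collagen fibril assembly, while SMOC1 and SMOC2 are components of basement membranes and can modulate bone morphogenetic protein (BMP) signaling. In fat these proteins come mostly from fibroblasts, adipocyte progenitors and vessel cells, and several are known targets of TGF-beta or of the transcriptional coactivator YAP.

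Total counts lay between 5431014 and 9580215 per mouse, and 13739 genes with a mean normalized count above 1 CPM (counts scaled to library size) were tested with edgeR's quasi-likelihood test. Axl itself lay between 0.437 and 2.01 CPM in Axl KO and between 38.2 and 52.3 CPM in WT mice, which matches the labels, and it was the 1 gene called at an adjusted p under 0.05 (0.00728% of those tested). Summed markers of brown adipocytes, with 6 genes including Ucp1, reached 8519 to 11130 CPM in Axl KO and 7071 to 8987 CPM in WT mice. The gap in the sum lay mainly in Ucp1, with means of 5561 and 4119 CPM, and the median log2 fold change of the 6 genes was 0.03. Elovl3 had the largest fold change of the 6, with means of 79.5 and 25.0 CPM, a log2 value of 1.67 and an adjusted p of 0.571 in edgeR. At an unadjusted p under 0.05, 2 of the 6 were higher (Ucp1 and Elovl3), beside 4.54% of all tested genes, and 0 were lower. Summed markers of B and T cells stayed at or below 1.27 CPM in every mouse. Skeletal muscle markers ranged from 3.76 to 2624 CPM in Axl KO and from 648 to 3109 CPM in WT mice, with Axl KO replicates 1 and 2 at the low end.

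Smoc2 (ENSMUSG00000023886, GRCm38 chr17:14279506-14404790, plus strand) was lower in every Axl KO mouse than in any WT mouse. It reached 27.6, 38.5, 37.5, 29.8 and 30.5 CPM in Axl KO replicates 1 to 5. In WT replicates 1 to 5 it reached 42.5, 44.96, 51.5, 45.7 and 42.9 CPM. The groups did not overlap, a part of the fall by which Smoc2 was chosen. With Axl KO below WT, this held for 0.619% of all tested genes. The nearest mice, Axl KO replicate 2 and WT replicate 1, were 38.5 and 42.5 CPM. The mean was 32.8 ± 4.89 CPM in Axl KO and 45.5 ± 3.60 CPM in WT mice (SD, n = 5 each), which gives a log2 fold change of -0.47 with a standard error of 0.097. The counts behind these values were 162 to 322 in Axl KO and 266 to 445 in WT mice. In RNA of a whole depot, fewer cells that express a gene and less of its RNA per cell cannot be told apart.

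**Figure D1:**
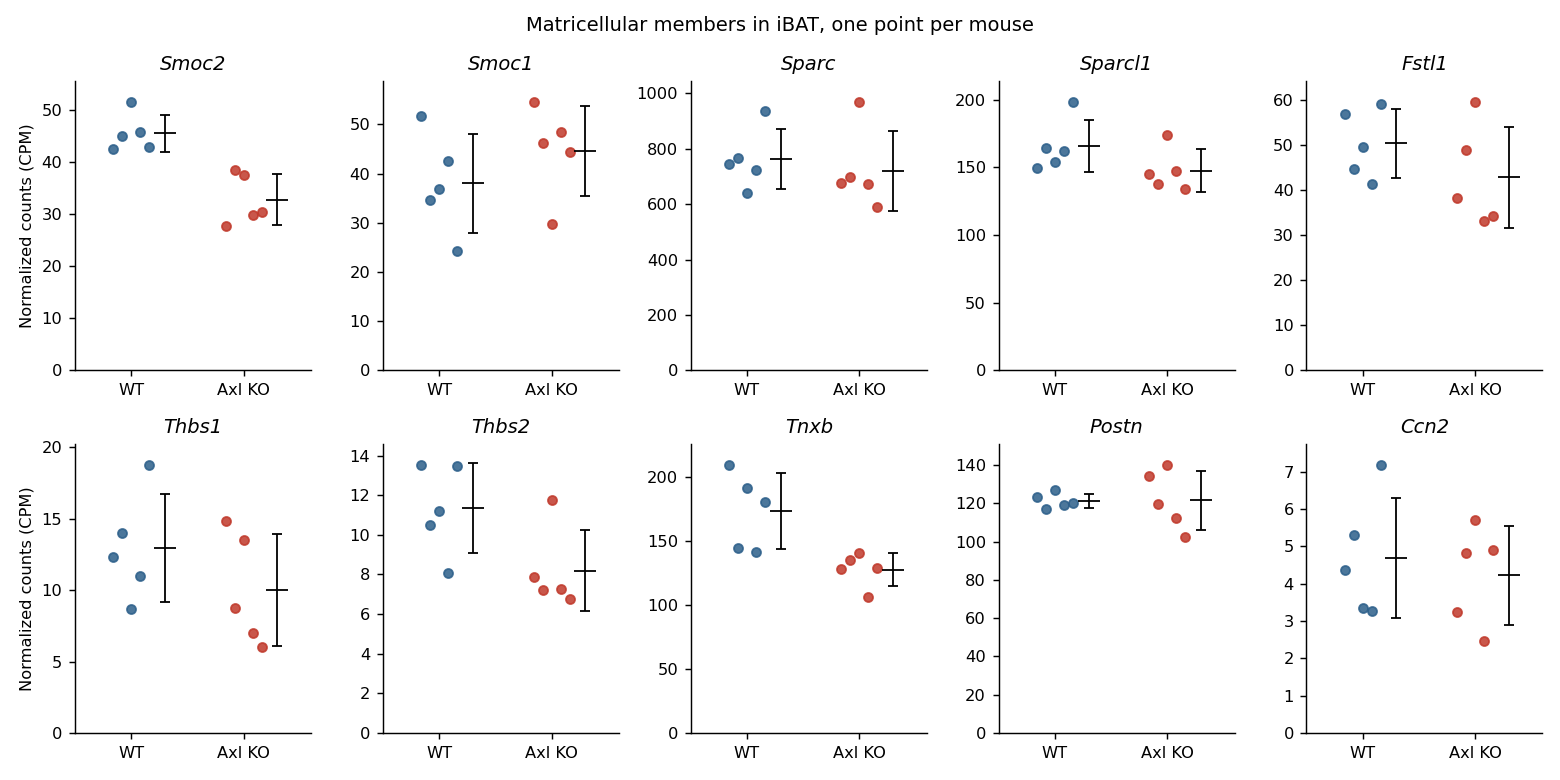
Normalized counts (CPM, linear axis from 0) of the 10 members, with 1 point per mouse, WT in blue and Axl KO in red; the black mark and bar give the mean and SD of 5 mice. Smoc2, chosen after its fall was seen, and Tnxb are the members whose groups do not overlap. Axl KO lies below WT without overlap in 0.619% of all tested genes. Axl KO replicate 3 is the highest Axl KO mouse for 7 of the 10 members.

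Smoc1 (chr12:81026808-81186414, plus strand), the closest relative of Smoc2, pointed the other way without passing the test. It reached 54.5, 46.3, 29.7, 48.5 and 44.4 CPM in Axl KO replicates 1 to 5. In WT replicates 1 to 5 it reached 51.7, 34.6, 36.8, 42.6 and 24.3 CPM. The groups overlapped over nearly their whole range, with a log2 fold change of 0.23, a standard error of 0.19 and an adjusted p of 0.744. The ratio of Smoc1 to Smoc2 CPM within a mouse was 0.792 to 1.97 in Axl KO and 0.566 to 1.22 in WT mice, a description that contains the difference on which Smoc2 was chosen.

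Sparc, which codes for a collagen-binding glycoprotein, did not separate the genotypes. It lay between 590.5 and 967.5 CPM in Axl KO (median 676) and between 640.1 and 938.0 CPM in WT mice (median 746), with a log2 fold change of -0.08 and a standard error of 0.13. Sparcl1, also known as hevin and abundant in vessels, ran from 134 to 174 CPM in Axl KO and from 149 to 198 CPM in WT mice. In 4 of 5 Axl KO mice Sparcl1 was below every WT mouse, with replicate 3 as the exception, and its log2 fold change was -0.16 with a standard error of 0.090 (unadjusted p = 0.0915, adjusted p = 0.635 in edgeR). Fstl1, a secreted follistatin-like glycoprotein, ran from 33.2 to 59.5 CPM in Axl KO and from 41.4 to 59.1 CPM in WT mice, with a log2 fold change of -0.23 and a standard error of 0.16.

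The thrombospondins are large multimeric glycoproteins that bind the scavenger receptor CD36, and THBS1 also binds CD47. Thbs2 (ENSMUSG00000023885, chr17:14665500-14694235, minus strand) reached 7.87, 7.21, 11.8, 7.28 and 6.77 CPM in Axl KO replicates 1 to 5. In WT replicates 1 to 5 it reached 13.5, 10.5, 11.2, 8.08 and 13.5 CPM. Replicate 3 was the Axl KO mouse that reached into the WT range, and the other 4 were below every WT mouse. The log2 fold change was -0.46 with a standard error of 0.18, and edgeR gave an unadjusted p of 0.0241 and an adjusted p of 0.571. These values rest on 36 to 107 counts per mouse. Thbs1 varied more between mice, with 6.02 to 14.8 CPM in Axl KO, 8.67 to 18.8 CPM in WT mice and a log2 fold change of -0.35 with a standard error of 0.26.

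Tnxb (ENSMUSG00000033327, chr17:34670535-34719815, plus strand) codes for tenascin X, a large matrix glycoprotein of connective tissue whose loss in humans causes a form of Ehlers-Danlos syndrome. It reached 128.5, 135.1, 140.5, 106.3 and 128.7 CPM in Axl KO replicates 1 to 5. In WT replicates 1 to 5 it reached 209.6, 144.9, 191.7, 141.8 and 180.5 CPM. The groups did not overlap, as in 0.619% of all tested genes with Axl KO below WT. WT replicates 2 and 4 lay close to the highest Axl KO mouse while WT replicates 1, 3 and 5 stood well above it. Means were 128 ± 13.0 and 174 ± 29.6 CPM (SD, n = 5 each), with a log2 fold change of -0.44, a standard error of 0.11, an unadjusted p of 0.0019 and an adjusted p of 0.571 in edgeR. Leaving out each mouse in turn kept the unadjusted p of Tnxb between 0.00065 and 0.0061.

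Postn and Ccn2 did not separate the genotypes. Postn, whose protein periostin takes part in the cross-linking of collagen, had nearly equal means of 122 ± 15.5 CPM in Axl KO and 121 ± 3.75 CPM in WT mice, a log2 fold change of 0.0042 with a standard error of 0.080. The 5 WT mice lay between 117 and 127 CPM, inside the Axl KO range of 102 to 140 CPM. Ccn2, formerly called Ctgf and a YAP target, was low, at 2.47 to 5.71 CPM in Axl KO and 3.27 to 7.17 CPM in WT mice, with 17 to 57 counts per mouse and a log2 fold change of -0.16 (standard error 0.27).

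All 10 members passed the filter on low values. Of the 9 members other than Smoc2, edgeR called 0 at an adjusted p under 0.05, and DESeq2 also called 0. At an unadjusted p under 0.05, 2 of the 9 were lower in Axl KO mice (Thbs2 and Tnxb), where 3.86% of all tested genes were, and 0 were higher, where 4.54% of all tested genes were. The count of 2 fell to 1, Tnxb, without any of Axl KO replicates 2, 4 or 5 or WT replicates 1 or 5, and rose to 4 without Axl KO replicate 3. Of the 9, Tnxb had every Axl KO mouse below every WT mouse, as did 0.619% of all tested genes. The fold change was below 0 for 7 of the 9, with a median log2 value of -0.16, beside 50.2% and a median of -0.00059 over all tested genes. Since the members were chosen with earlier results of these data known, these counts are a description.

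**Figure D2:**
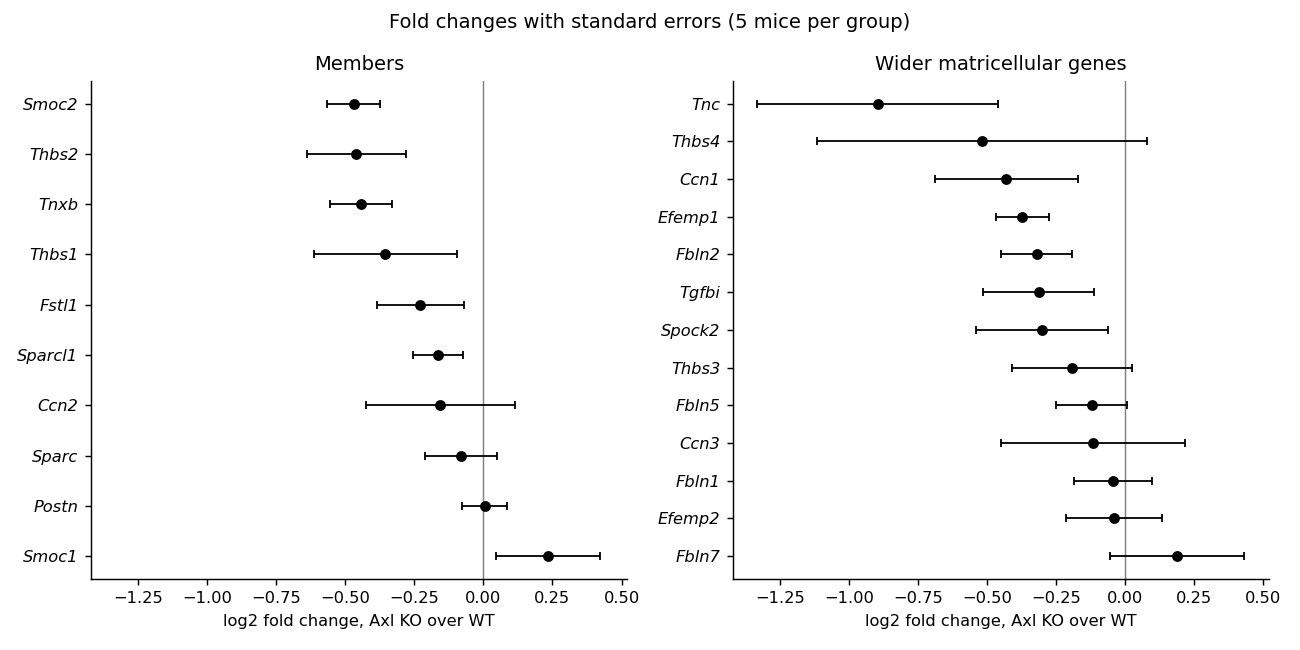
Log2 fold changes (Axl KO over WT) with standard errors from edgeR, for the 10 members on the left and the 13 tested genes of the wider matricellular list on the right, 5 mice per group. Smoc2, Thbs2 and Tnxb lie near -0.46 and Postn lies at 0.00.

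Further matricellular genes, chosen with earlier results of these data known, were compared as a list of 22, of which 13 passed the filter. The fold change was below 0 for 12 of these 13, beside 50.2% of all tested genes, their median log2 value was -0.30, and 0 passed the adjusted threshold. The fibulin genes Fbln2 and Efemp1, whose products belong to elastic fibres and basement membranes, were lower at an unadjusted p under 0.05, beside 3.86% of all tested genes, and 0 genes of the list were higher at that level. Efemp1 lay between 16.2 and 21.04 CPM in Axl KO and between 21.8 and 28.8 CPM in WT mice without overlap, as 0.619% of all tested genes did with Axl KO below WT, with a log2 fold change of -0.37, a standard error of 0.096 and an adjusted p of 0.571. Fbln2 lay between 36.8 and 58.4 CPM in Axl KO and between 47.2 and 66.3 CPM in WT mice, with a log2 fold change of -0.32, a standard error of 0.13 and an adjusted p of 0.571. The count of 2 on this list was 1 without any of Axl KO replicates 1, 4 or 5 or WT replicates 1 or 5, and 4 without Axl KO replicate 3. Tgfbi, a relative of periostin, had 11.3 to 30.5 and 20.6 to 31.0 CPM, with an adjusted p of 0.670. The other SPARC family genes Spock1 and Spock3, like Comp, Tnr, Tnn, Spp1 and the CCN genes Ccn4, Ccn5 and Ccn6, were below the filter and were not tested.

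Receptors and ligands that these proteins bind were compared as a list of 18, of which 17 were tested. Lrp1, an endocytic receptor that takes up thrombospondins, was the 1 gene of the 17 lower at an unadjusted p under 0.05, near the 3.86% of all tested genes, with 515 to 647 CPM in Axl KO and 599 to 841 CPM in WT mice, a log2 fold change of -0.27, a standard error of 0.092 and an adjusted p of 0.571. Without Axl KO replicate 3 the count was 3, and without WT replicate 2 it was 2. Cd36, the fatty acid transporter and thrombospondin receptor, lay at 3515 to 3821 CPM in Axl KO and 3398 to 3641 CPM in WT mice, with a log2 fold change of 0.04. The integrin subunit Itgb1 had a log2 fold change of -0.06. The BMP ligand gene Bmp7 was below the filter.

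Known YAP target genes were compared as a list of 19, because Ccn2 is the classical member of that program, and 17 of them were tested. Ccn2, Ccn1 and Axl were left out of this list. The fold change was below 0 for 11 of the 17 and above 0 for 6, with a median log2 value of -0.13, beside 50.2% below 0 among all tested genes. This list, too, was chosen with earlier results of these data known. At an unadjusted p under 0.05, 4 were lower in Axl KO mice (Ptpn14, Arhgef17, F3 and Gadd45a), beside 3.86% of all tested genes, and 0 were higher, beside 4.54%, and 0 passed the adjusted threshold. The largest of these differences was that of Gadd45a, a growth arrest gene, with 0.753 to 1.75 CPM in Axl KO and 1.16 to 3.15 CPM in WT mice and a log2 fold change of -0.86 with a standard error of 0.34. It rests on few counts, 4 to 15 in Axl KO and 8 to 25 in WT mice. F3, the gene for tissue factor, had a log2 fold change of -0.42 with a standard error of 0.17. Ptpn14 and Arhgef17 had log2 fold changes of -0.17 and -0.24. The count of 4 was 7 without Axl KO replicate 3, 1 without WT replicate 2 or 5 and 0 without any of Axl KO replicates 1, 2 or 5 or WT replicate 1. It was also 0 with the replicate block and 0 with the skeletal muscle level of each mouse in the fit. Amotl2, an angiomotin family gene, ran from 64.5 to 158 CPM in Axl KO and from 104 to 172 CPM in WT mice, with an adjusted p of 0.610. Ccdc80 had a log2 fold change of -0.13.

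Markers of the cells that make these proteins were set beside the members, and 0 of the fibroblast, mural and endothelial markers passed the adjusted threshold. The 10 fibroblast and progenitor markers summed to 474 to 781 CPM in Axl KO and 651 to 850 CPM in WT mice, and the fold change was below 0 for 9 of the 10, beside 50.2% of all tested genes, their median log2 value being -0.22. Of them, 1 was lower (Col1a1) and 1 higher (Ly6a) at an unadjusted p under 0.05, beside 3.86 and 4.54% of all tested genes. Smoc2 expressed as a percentage of this summed level was 3.92 to 6.43% in Axl KO and 5.14 to 7.02% in WT mice, so on that scale, which was chosen after the data were seen, the groups overlapped. Mural cell markers, for pericytes and smooth muscle, summed to 625 to 746 CPM in Axl KO and 690 to 768 CPM in WT mice, and those of endothelial cells to 442 to 544 and 416 to 618 CPM. The part of these cell types in the results was not tested. With the skeletal muscle level of each mouse in the fit, also chosen after the data were seen, the log2 fold change of Smoc2 was -0.47 and that of Tnxb -0.44, as without it, and that of Thbs2 -0.39 beside -0.46 without it, its unadjusted p being 0.0878.

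**Figure D3:**
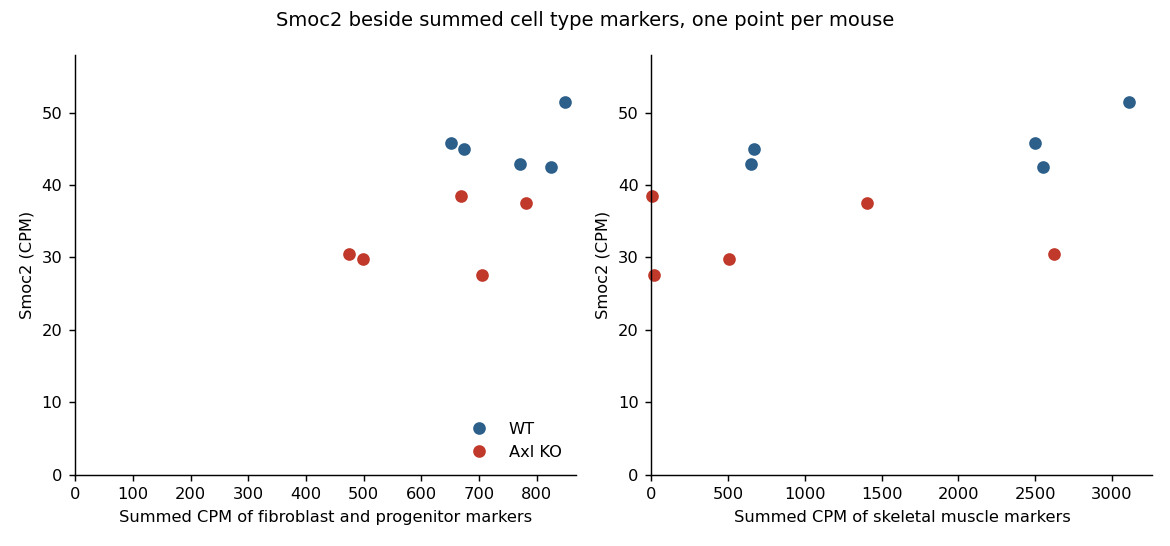
Smoc2 (CPM) against the summed CPM of fibroblast and progenitor markers (left) and of skeletal muscle markers (right), 1 point per mouse, WT in blue and Axl KO in red. Axl KO replicates 4 and 5 have the lowest fibroblast sums, 499 and 474 CPM, where there is no WT mouse, since the lowest WT sum is 651 CPM.

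Per kilobase of merged exons, the members spanned a wide range of levels, and Smoc2 was 7th of the 10. Over the 10 mice Sparc was the highest, with a mean of 196 CPM per kb, and Sparcl1 followed with 53.3 CPM per kb. Postn, Tnxb, Smoc1 and Fstl1 formed a middle group at 14.0, 12.3, 11.8 and 9.48 CPM per kb. Within this group the order differed by genotype. In WT mice Tnxb (14.2) was above Postn (13.9), and in Axl KO mice Smoc1 (12.8) was above Tnxb (10.5). Smoc2 had 4.72 ± 0.703 CPM per kb in Axl KO and 6.55 ± 0.517 in WT mice (SD, n = 5 each), and Thbs1, Ccn2 and Thbs2 lay at the bottom, at 1.89, 1.56 and 1.39 CPM per kb over all mice. In WT mice, the level of Sparc per kb exceeded that of 98.1% and the level of Smoc2 that of 62.8% of the tested genes.

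Neighbours in this order were compared within each mouse by a two-sided exact sign-flip permutation test, with p-values adjusted over the 9 pairs of neighbours. The order came from the same 10 mice, so the pairs and their direction were set by the data tested. The p-values are therefore descriptions. The steps from Sparc to Sparcl1 and from Sparcl1 to Postn were in the same direction in 10 of 10 mice (each adjusted p = 0.0044, exact permutation). That came from an unadjusted 0.00195, the smallest this design allows. The steps from Fstl1 to Smoc2 and from Smoc2 to Thbs1 also kept their direction in 10 of 10 mice. In the order named, these steps amounted to 3.66-fold, 3.81-fold, 1.68-fold and 3.09-fold. Both genotypes enter them, so those of Smoc2 contain the low Axl KO values by which it was chosen and are given without a p-value. In WT mice alone Fstl1 and Smoc2 had means of 10.2 and 6.55 CPM per kb. The steps from Postn through Tnxb and Smoc1 to Fstl1, and from Thbs1 through Ccn2 to Thbs2, did not exceed the spread between mice (adjusted p from 0.113 to 0.680, exact permutation). With the longest annotated transcript as the length, Smoc2 stayed 7th. Its step from the next higher gene, then Smoc1, was 1.19-fold and held in 6 of 10 mice. The step from Postn to Tnxb then had an adjusted p of 0.0044 (exact permutation). The merged exons of Smoc2 come to 6951 bases and its longest transcript to 3972, so that its level per kb depends on which isoforms are present.

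**Figure D4:**
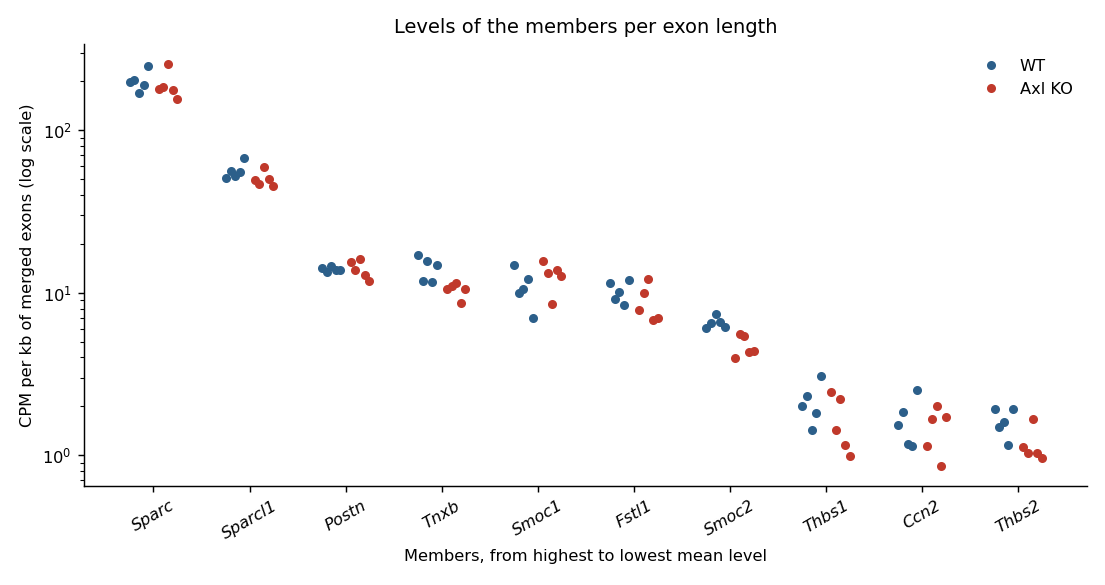
Level of each member in CPM per kb of merged exons (log axis), 1 point per mouse, WT in blue and Axl KO in red, ordered by the mean over 10 mice. Sparc and Sparcl1 stand above the rest, and Thbs1, Ccn2 and Thbs2 overlap at the bottom.

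The members also differed in how much they varied between mice of 1 genotype. The biological coefficient of variation fitted by edgeR was 10.7% for Smoc2 and 10.5% for Postn, beside a median of 11.0% over all tested genes. It was 27.4% for Thbs1 and 25.8% for Ccn2, above 93.8 and 92.7% of the tested genes, and 20.8% for Smoc1. In WT mice alone, the coefficient of variation of Postn was 3.09% and that of Smoc2 7.90%. Axl KO replicate 3 was the highest Axl KO mouse for 7 members (Sparc, Sparcl1, Fstl1, Thbs2, Tnxb, Postn and Ccn2) and the lowest for Smoc1, and WT replicate 5 was the highest WT mouse for 5 members and again the lowest for Smoc1. The library of Axl KO replicate 3 had 8214841 counts, the most among the Axl KO mice, and the part of depth in these values was not tested.

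Whether members vary together within a genotype was asked on log2 CPM after the mean of each genotype was taken off, over 10 mice and 45 pairs. For each pair, r was also taken without the mice farthest from the median of the gene that comes first in the list of members. Such a choice narrows the spread of that gene. By an exact permutation test within genotype, 0 of 45 pairs passed after adjustment and 12 had an unadjusted p under 0.05. The Pearson r was above 0 for 34 pairs, with a median of 0.42 over all 45. These counts were not set beside those of other gene pairs, so whether they are particular to the members was not tested. Sparc with Sparcl1 had the highest, r = 0.90 (exact permutation p = 0.0064, adjusted p = 0.124) with a Spearman rho of 0.55 (p = 0.109, adjusted p = 0.328), and r fell to 0.48 without Axl KO replicate 3 and WT replicate 5, on which the relation thus rests in part. Fstl1 with Thbs2 followed, with r = 0.84 (exact permutation p = 0.0028, adjusted p = 0.124), rho = 0.72 (p = 0.0235, adjusted p = 0.238) and r = 0.61 without the same mice. Sparc with Thbs1 had r = 0.77 over all mice (exact permutation p = 0.010, adjusted p = 0.124) and rho = 0.73 (p = 0.0252, adjusted p = 0.238), and without Axl KO replicate 1 it was the 1 pair that passed (r = 0.98, adjusted p = 0.0156, exact permutation).

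For Smoc1, r was below 0 in 9 of its 9 pairs over all mice, but 0 of these pairs passed after adjustment and r was above 0 in 6 of them (Sparc, Fstl1, Thbs1, Thbs2, Tnxb and Postn) without Axl KO replicate 3 and WT replicate 5. The lowest was with Sparcl1, r = -0.85 (exact permutation p = 0.0138, adjusted p = 0.124) with rho = -0.58 (p = 0.118, adjusted p = 0.328), and it was -0.19 without Axl KO replicate 3 and WT replicate 5. With Sparc the r of -0.72 turned to 0.31 without these mice, which lie farthest from the median of Smoc1. The pair of Smoc1 with Smoc2 was instead recomputed without Axl KO replicates 2 and 3, with r = -0.08. For Smoc2, the median r over its 9 pairs was 0.22, from -0.37 with Smoc1 to 0.54 with Fstl1, and 0 of the pairs passed after adjustment. These values pool genotypes that could differ in sign. With Fstl1, r was 0.84 within Axl KO and -0.42 within WT mice, and with Sparc 0.61 and -0.77. With Postn it was above 0 in both, at 0.25 and 0.55. The difference between genotypes in r was not tested. Without Axl KO replicates 2 and 3, r was below 0 in 9 of these 9 pairs, with -0.48 for Fstl1 and -0.79 for Thbs1. Those mice were left out because they lie farthest from the median of Smoc2. They are the highest Axl KO mice for Smoc2, and the Axl KO mice that remain lie between 27.6 and 30.5 CPM. The positive values of Smoc2 were thus not kept without them, and whether this is particular to those mice was not tested.

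**Figure D5:**
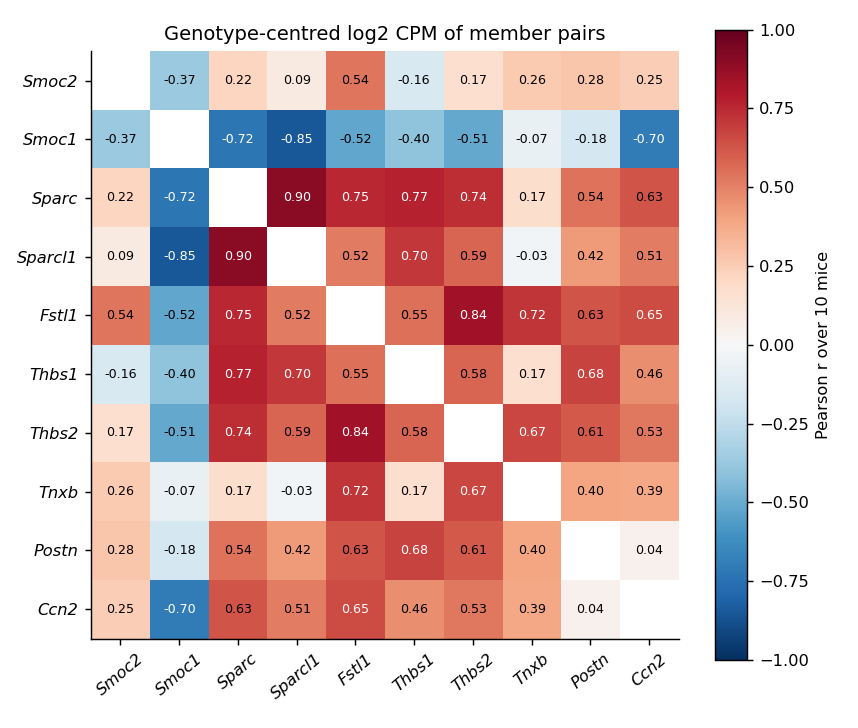
Pearson r of genotype-centred log2 CPM over 10 mice for the 45 pairs of members, red above 0 and blue below 0. The row of Smoc1 is below 0 throughout, and 0 of the 45 pairs passed after adjustment. Without Axl KO replicate 3 and WT replicate 5, its values with Sparc, Fstl1, Thbs1, Thbs2, Tnxb and Postn are above 0. Its pair with Smoc2 was not recomputed without these mice.

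The tested genes whose genotype-centred log2 CPM was most like that of Smoc2 over the 10 mice were, as a description, Nup98 (r = 0.94), a nucleoporin gene, Tmem25 (r = 0.93), Gpc3 (r = 0.91), the gene for the heparan sulfate proteoglycan glypican-3, Rogdi (r = 0.91) and Pip5k1a (r = 0.90). The lowest r values were those of Gm28305 (-0.94), Tm6sf1 (-0.94) and Opa3 (-0.93). Fstl1, the member most like Smoc2, ranked 1149th of the tested genes. These values are the extremes of 13739 correlations over the same 10 libraries.

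With the 10 members, 6 marker lists were compared in the same way, a choice made after the data were seen, and 0 of 60 relations passed the adjusted threshold. The smallest unadjusted p was that of Tnxb with the fibroblast and progenitor markers (r = 0.79, exact permutation p = 0.0012, adjusted p = 0.0583), with a rho of 0.81 (p = 0.0053, adjusted p = 0.0792) and r = 0.93 without Axl KO replicates 4 and 5. For Smoc2 and the same markers r was 0.46 (exact permutation p = 0.295, adjusted p = 0.507) and rho was 0.31 (p = 0.460, adjusted p = 0.728), and r was 0.22 without those mice. Axl KO replicates 4 and 5 were left out here because they lie farthest from the median of the markers.

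Smoc2 and Thbs2 lie on chromosome 17, their annotated starts 415 kb apart. Within 500 kb of the start of Smoc2, 4 other genes start, of which Dact2 and Thbs2 passed the filter and were lower in Axl KO mice at an unadjusted p under 0.05, beside 3.86% of all tested genes, though neither passed after adjustment. Dact2, whose start lies 75.2 kb before that of Smoc2, was at a mean of 2.32 CPM with a log2 fold change of -0.61, a standard error of 0.27 and an adjusted p of 0.588. Gm7168 and Gm7358 had 0 counts in every mouse. Tnxb lies on the same chromosome, outside this window, and Axl lies on chromosome 7.

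For the 2 members other than Smoc2 that were lower at an unadjusted p under 0.05, the 250 bases before the annotated start are shown to set their promoters side by side (RefSeq, GRCm38.p6). Capitals mark matches on either strand to 5 motifs, each given with its share of all 32851 promoter windows of 300 bases. These windows also hold 50 bases after the start, which are not shown, so the shares are for a longer stretch than the one printed. The TATA box was searched as TATAAA and is held by 13.6% of the windows. The CCAAT box was searched by its letters and is held by 37.4%. The SMAD motif CAGACA is held by 21.04%. The motif GGAATG of TEAD, the factor that YAP binds, is held by 14.7%. The GC box GGGCGG is held by 35.7%.
Thbs2, chr17:14694263-14694512, minus strand: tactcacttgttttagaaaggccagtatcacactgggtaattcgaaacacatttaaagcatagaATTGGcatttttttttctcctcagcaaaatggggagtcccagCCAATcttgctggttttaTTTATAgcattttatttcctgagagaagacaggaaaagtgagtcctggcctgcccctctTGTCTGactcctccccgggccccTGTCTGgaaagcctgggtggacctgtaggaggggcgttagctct
Tnxb, chr17:34670285-34670534, plus strand: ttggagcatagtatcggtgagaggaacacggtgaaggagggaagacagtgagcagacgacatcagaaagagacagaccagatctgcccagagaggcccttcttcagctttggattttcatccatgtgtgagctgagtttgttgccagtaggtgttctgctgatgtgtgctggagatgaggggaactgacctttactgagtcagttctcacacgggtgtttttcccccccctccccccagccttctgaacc
The Thbs2 stretch holds 5 matches without overlap, which are the SMAD motif at 2 places and the TATA box at 1 on the reverse strand, and the CCAAT box at 1 place on each strand. The Tnxb stretch holds 0 of these motifs. Promoter windows were found for 5 of the 10 members, and in 0 of these 5 did the letters GGAATG occur on either strand. Smoc2, Smoc1, Sparcl1, Thbs1 and Ccn2 were not among those 5.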

How the data were processed

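RNA-seq of iBAT from 5 Axl KO and 5 WT mice was analysed from the raw counts per Ensembl gene that the authors deposited, 1 table per mouse, not normalized. The paper's methods name rRNA depletion, Trim Galore and hisat2 with GRCm38; the submitters' processing notes name bcl2fastq, Trimmomatic 0.36, STAR 2.6.1c, DESeq2 and GRCm38.p5, and the sample records polyA RNA. The counter and its strand setting are not given in the sources used here, so reads shared with overlapping genes or near-identical copies cannot be assigned with certainty. Of 41249 identifiers, 41163 matched GENCODE M21.

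Counts were TMM-normalized and fitted in edgeR 4.0.16 (quasi-likelihood, genotype only) over 13739 genes with a mean above 1 CPM, with Benjamini-Hochberg adjustment over all of them. DESeq2 1.42.0 was an alternative. Correlations used log2 CPM with a prior count of 2. The statistical steps were tested on simulated data. Genes named are Axl, the members, and from each related list those at an unadjusted p under 0.05 and the 3 of highest level, plus the 5 genes most and 3 least like Smoc2 and neighbours within 500 kb. The members and lists were chosen with earlier results of these data known. Alternatives were DESeq2, RLE size factors, filterByExpr, no filter, each mouse left out, the replicate block, a prior count of 0.5, transcript length and, added later, a skeletal muscle covariate. Depth limits genes with few counts, such as Ccn2 with 17 to 57.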

Additional observations from a re-analysis of the deposited data

Results flagged for a closer look

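In 6 of 46 groups of 5 mice, over the 23 genes named in the comparisons, 1 mouse lay far from the other 4 (a gap over 0.71 of the range, Dixon's test), which chance gives in about 1 in 20 groups. Axl KO replicate 3 was the high mouse for Sparc (967.5 CPM, the next being 696.8), for Thbs2 (11.77 CPM, the next being 7.869) and for Arhgef17 (20.63 CPM, the next being 16.59). The residual Axl in Axl KO replicate 4 was 0.4367 CPM, below the next value of 1.694. WT replicate 1 was low for Cd36 (3398 CPM against 3587) and high for Ccdc80 (95.42 CPM against 69.61).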

How the results depend on the processing

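Of 368 log2 fold changes of the 23 named genes under the alternatives, 358 kept their sign. DESeq2 called 9 genes in all against 1 in edgeR, and 0 of the 9 members other than Smoc2 were called under any alternative run. Smoc2 stayed between -0.53 and -0.41 when each mouse was left out. The fits without 1 mouse gave 1 to 4 members other than Smoc2 lower at an unadjusted p under 0.05, 1 to 4 genes of the wider list, 1 to 3 binding partners, 0 to 7 lower and 0 to 2 higher YAP targets, and 0 to 1 member pair that varied together. The log2 fold changes without 1 mouse ran from -0.21 to 0.0031 for Sparc, from -0.052 to 0.059 for Postn and from -0.31 to 0.046 for Ccn2. With the skeletal muscle covariate, added after the data were seen, 1 member other than Smoc2, 1 wider gene and 0 YAP targets were lower and 1 YAP target was higher, and the log2 fold changes of Postn and Cd36 were -0.026 and -0.0031. With no filter, 1 YAP target was higher. In each case the cause was not tested.

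With the replicate block, 0 YAP targets were lower and the log2 fold change of Postn was -0.0046; the block left 2 members other than Smoc2 lower at an unadjusted p under 0.05. The deviations of same-numbered mice correlated at -0.36 to 0.37, and 1 of 5 Axl KO mice correlated best with its own number. Likeness in expression cannot tell whether same-numbered mice were paired by litter, cage or handling. Few counts limit Thbs1, Thbs2, Ccn2 and Gadd45a.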
